A study of Mus musculus with 8 samples.

Results

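Receptors that direct T cells to mucosal tissue were examined in Tregs, regulatory T cells of the CD4+ lineage that hold immune responses in check. The 6 receptor genes were Ccr9, Itga4, Itgb7, Itgae, Gpr15 and Ccr10, out of 19937 genes measured. They were chosen by name for this role, and each had 1 probe set that carried its symbol alone. Where a gene has several such probe sets, the rule keeps the one with the highest mean over all 8 arrays, which here left no choice to make. Ccr9 was on the list because it was already known to be lower in IIKO chimeras on these same arrays. Its difference is therefore given as a description, without a test, and the tests concern the other 5 genes.

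The Tregs came from bone marrow chimeras of 2 kinds. In both, the recipients were CD3ε-/- mice, which form no T cells of their own because the T cell receptor (TCR) complex lacks one of its subunits, and all were lethally irradiated before they received marrow. IIKO-CD3KO chimeras received IIKO marrow, and per the labels the TCR of their Tregs meets no MHC class II in peripheral tissue. WT-CD3KO chimeras received wild-type marrow, and their Tregs kept that contact. Cells of the host that survive irradiation, among them thymic stroma, keep the host's genotype. The strain was C57BL/6 at an age of 6 to 8 weeks. Peripheral Tregs were taken 28 days after reconstitution as CD4+ TCRβ+ CD25+ cells of peripheral lymph nodes and spleen. Each group had 4 biological replicates on 1 Affymetrix array each, from 100 ng of total RNA. How many mice a replicate pools is not stated, so a p-value reflects the spread between replicates as collected. No Treg of the gut wall itself was sampled.

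A T cell enters the small intestine when CCR9 senses CCL25, which the epithelium there secretes, and when the integrin of the chains α4 (Itga4) and β7 (Itgb7) binds MAdCAM-1 on gut venules. Dendritic cells of the gut imprint CCR9 and α4β7 together by supplying retinoic acid during activation. The chain αE (Itgae, CD103) also pairs with β7 and holds cells to epithelial E-cadherin. GPR15 guides T cells, Tregs among them, to the large intestine, and CCR10 binds CCL27 in skin and CCL28 on mucosal surfaces. CCR9 is also carried by thymocytes and by plasmacytoid dendritic cells. In sorted populations, fewer cells of a type and less RNA per cell cannot be told apart.

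The sequences upstream of Ccr9 and of both α4β7 chains are shown because the 3 gene products act together in small intestinal homing. Each is the 250 bases before the annotated start, 5′ to 3′ on the gene's strand, from RefSeq on GRCm38.p6. That table held a start for 4 of the 6 genes. Capitals mark the E-box letters CANNTG.
Ccr9 (chr9:123766961-123767210, plus strand): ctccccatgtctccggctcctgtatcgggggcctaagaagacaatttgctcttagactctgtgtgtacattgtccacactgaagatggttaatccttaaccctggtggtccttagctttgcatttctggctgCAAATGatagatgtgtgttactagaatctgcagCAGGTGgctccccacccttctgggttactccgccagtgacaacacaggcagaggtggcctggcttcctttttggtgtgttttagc
Itga4 (chr2:79255176-79255425, plus strand): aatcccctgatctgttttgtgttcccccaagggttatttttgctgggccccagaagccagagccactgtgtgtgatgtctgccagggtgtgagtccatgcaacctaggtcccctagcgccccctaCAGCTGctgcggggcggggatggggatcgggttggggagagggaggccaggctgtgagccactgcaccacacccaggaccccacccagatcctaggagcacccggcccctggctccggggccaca
Itgb7 (chr15:102231936-102232185, minus strand): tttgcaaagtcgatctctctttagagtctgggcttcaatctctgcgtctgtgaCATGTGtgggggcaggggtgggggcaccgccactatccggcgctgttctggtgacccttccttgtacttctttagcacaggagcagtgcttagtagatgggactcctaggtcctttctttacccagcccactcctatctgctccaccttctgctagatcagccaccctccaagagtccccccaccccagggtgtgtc
Both strands were searched for 5 motifs. The E-box, which E proteins bind, was found 2 times before Ccr9 and 1 time each before Itga4 and Itgb7, and 66.2% of the 32851 promoters of that length in the table hold it. The retinoic acid receptor half-site AGGTCA, held by 14.0% of promoters, and the NFAT core GGAAA, held by 55.6%, had 0 matches in these 3 windows. The AP-1 letters TGANTCA, held by 6.75% of promoters, also had 0. The RUNX core TGTGGT, held by 14.0%, matched 1 time, before Itga4. A match is a description of the letters, and no binding was measured.

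Ccr9 transcript was lower in every IIKO array than in every WT array. On the log2 scale of the deposited values, it was at 7.37, 7.29, 7.39 and 7.40 in IIKO arrays 1 to 4, against 8.52, 8.66, 8.59 and 7.94 in WT arrays 1 to 4. The 4 IIKO values lay close together, while WT array 4 stood below the other WT arrays and nearest to the IIKO group. The means were 7.37 ± 0.05 in IIKO and 8.43 ± 0.33 in WT chimeras (SD, n = 4 arrays each). The difference was -1.06 ± 0.14 (log2, SE), or 2.09-fold lower in IIKO. Of the 19937 genes, 8 had a lower difference. Leaving out WT array 4 gave -1.22, and leaving out any other single array gave no value above -0.98. The arrays were not examined for background, so the fold of a transcript at this level depends on a level that was not checked.

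**Figure D1:**
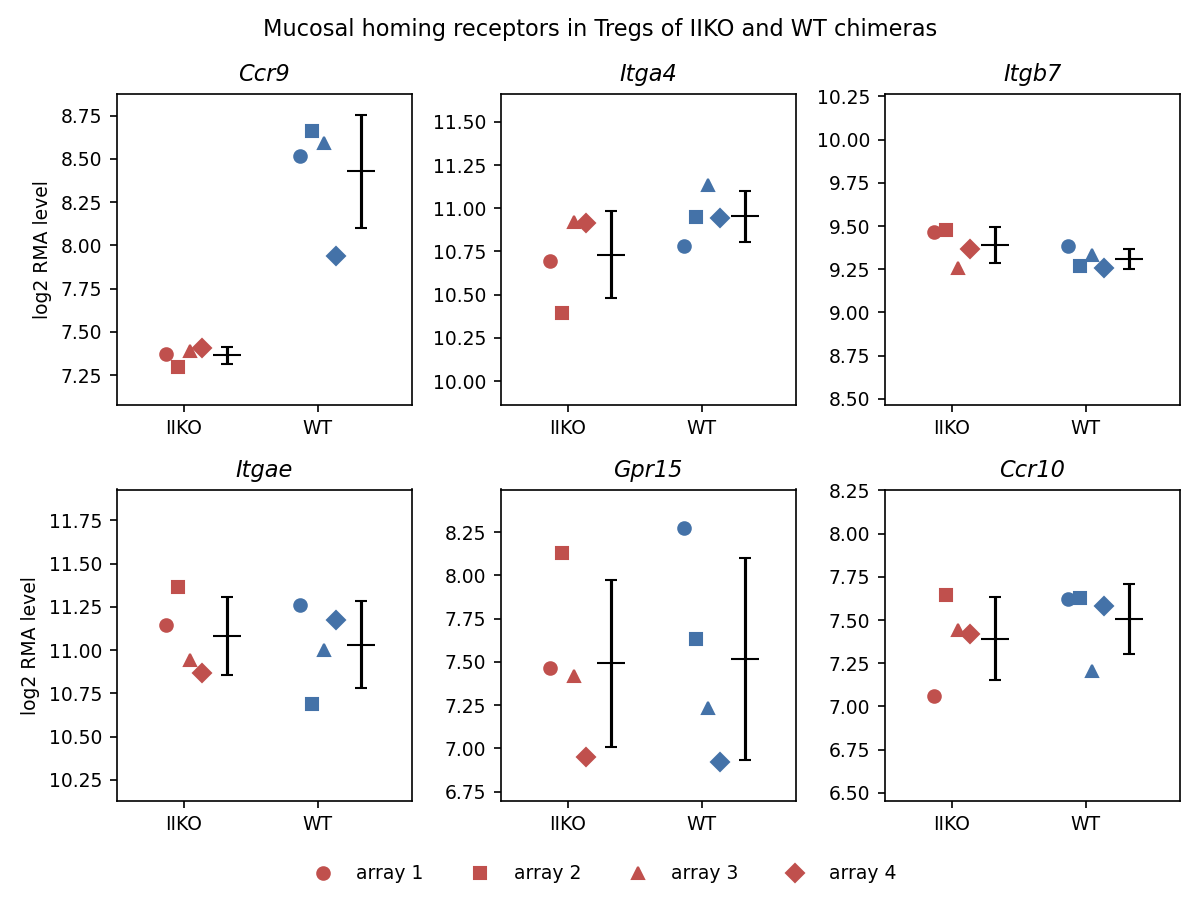
Log2 RMA level (y axis) of the 6 receptor genes in each array, IIKO chimeras left and WT chimeras right in every panel; marker shapes give the array number, and the bar to the right of each group is its mean ± SD (n = 4 arrays). All panels span the same number of log2 units. The IIKO values of Ccr9 lie between 7.29 and 7.40, all below the WT values, while the groups of the other 5 genes overlap.

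The other receptors did not follow Ccr9 past the test. By limma with Benjamini-Hochberg adjustment over all genes, 0 of the 5 tested genes passed, against 0.286% of all genes (57 genes, 32 or 0.161% higher and 25 or 0.125% lower). With the arrays centred on their medians, 58 genes were higher and 23 lower, and still 0 of the 5 passed. None of the 5 had an unadjusted p under 0.05 either, where 17.3% of all genes lay under it. For none of them did the groups separate, as they did for 10.5% of all genes (2.83% higher and 7.69% lower in IIKO).

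Itga4, the α4 chain, was at 10.69, 10.39, 10.92 and 10.92 in the IIKO arrays, against 10.78, 10.95, 11.14 and 10.95 in the WT arrays. The groups overlapped, with IIKO array 2 lowest of all 8 and WT array 3 highest. The means were 10.73 ± 0.25 in IIKO and 10.95 ± 0.14 in WT chimeras (SD, n = 4 arrays each). They differed by -0.22 (95% confidence interval -0.49 to 0.05, limma adjusted p = 0.362). Without IIKO array 2 the difference was -0.11. The lower bound of the interval corresponds to a 1.40-fold lower level in IIKO, and 4.73% of all genes had a difference as low as that of Itga4 or lower.

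Itgb7, the β7 chain shared by both mucosal integrins, was at 9.46, 9.48, 9.26 and 9.37 in the IIKO arrays, against 9.38, 9.27, 9.33 and 9.26 in the WT arrays. These 8 values lay close together and the groups overlapped. The difference was 0.08 (95% confidence interval -0.06 to 0.22, limma adjusted p = 0.528). It was 0.03 after a further quantile normalization and 0.13 with the arrays centred on their medians, and 0.05 without IIKO array 2 and 0.13 without IIKO array 3. Of the 6 receptors it varied least within groups, with a pooled SD of 0.08 that exceeded the SD of 31.2% of all genes.

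Itgae, the αE chain that marks many Tregs of epithelial tissue, was at 11.15, 11.37, 10.94 and 10.87 in the IIKO arrays, against 11.26, 10.69, 11 and 11.18 in the WT arrays. The WT group held the lowest of the 8 values and the IIKO group the highest. The means of 11.08 ± 0.22 in IIKO and 11.03 ± 0.25 in WT chimeras (SD, n = 4 arrays each) differed by 0.05 (95% confidence interval -0.26 to 0.36, limma adjusted p = 0.874). That sign turned when IIKO array 2 (-0.05) or WT array 2 (-0.06) was left out.

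Gpr15, the receptor tied to the large intestine, varied most. It was at 7.46, 8.13, 7.42 and 6.95 in the IIKO arrays, against 8.27, 7.63, 7.23 and 6.92 in the WT arrays. Each group held 1 array above 8 and 1 array below 7, so the spread lay within the groups and not between them. The means were 7.49 ± 0.48 in IIKO and 7.52 ± 0.58 in WT chimeras (SD, n = 4 arrays each). The pooled SD within groups was 0.54, larger than that of 99.7% of all genes. The difference of -0.02, which was 0.03 with the arrays centred on their medians, had a wide 95% confidence interval of -0.68 to 0.63 (limma adjusted p = 0.973). A level up to 1.6-fold lower in IIKO lies inside that interval.

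Ccr10, the receptor for CCL27 and CCL28, was at 7.06, 7.65, 7.44 and 7.42 in the IIKO arrays, against 7.62, 7.63, 7.21 and 7.58 in the WT arrays. The groups overlapped, and WT array 3 stood apart below the other 3 WT arrays. The means were 7.39 ± 0.24 in IIKO and 7.51 ± 0.20 in WT chimeras (SD, n = 4 arrays each). The difference was -0.12 (95% confidence interval -0.40 to 0.17, limma adjusted p = 0.661), and without IIKO array 1 it was -0.005.

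**Figure D2:**
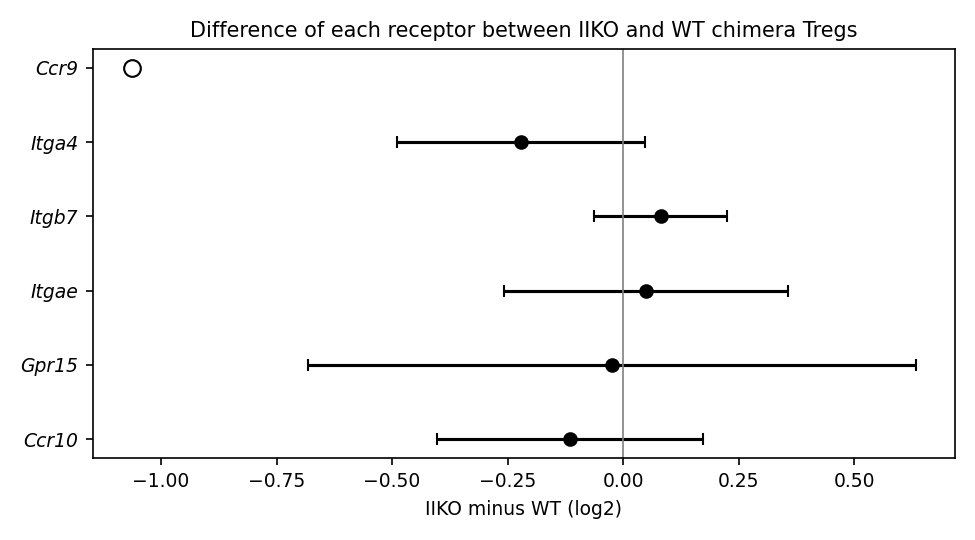
IIKO minus WT difference (x axis, log2) of each receptor gene; filled points are the 5 tested genes with limma's 95% confidence interval (n = 4 arrays per group), and the open point is Ccr9, drawn without an interval because it was chosen for its difference. Every interval contains 0, and the widest, for Gpr15, runs from -0.68 to 0.63.

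In each group, the array lowest in Itga4 was the highest in Itgae, Gpr15 and Itgb7. IIKO array 2, which had the lowest Itga4 of its group (0.34 below the group mean), had the highest Itgae (0.29 above), Gpr15 (0.64 above) and Itgb7 (0.09 above). WT array 1, the lowest WT array for Itga4 (0.17 below), was likewise the highest WT array for Itgae (0.23 above), Gpr15 (0.76 above) and Itgb7 (0.07 above). Pearson's r between deviations from the group means over the 8 arrays was -0.72 for Itga4 with Itgae, -0.77 with Gpr15 and -0.69 with Itgb7 (Spearman's rho -0.81, -0.62 and -0.76). Among the other 3, r was 0.64 for Itgae with Itgb7, 0.56 for Itgb7 with Gpr15 and 0.48 for Itgae with Gpr15 (rho 0.60, 0.57 and 0.36). These values are descriptions of 8 deviations that share their arrays and their group means. For Ccr9, r was -0.49 with Itgae, 0.36 with Gpr15, 0.18 with Itga4 and 0.13 with Itgb7 (rho -0.60, 0.26, 0.33 and -0.10). Ccr10 had r of -0.49 with Itga4, 0.41 with Gpr15, 0.14 with Itgae, -0.15 with Itgb7 and -0.21 with Ccr9 (rho -0.45, 0.52, 0.29, 0.05 and -0.02).

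**Figure D3:**
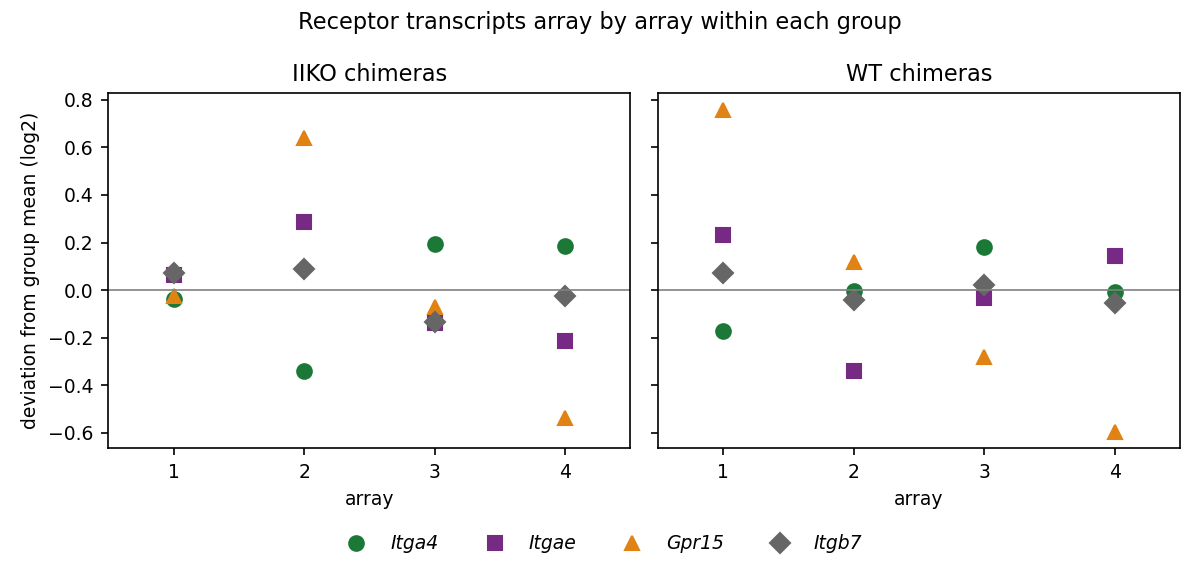
Deviation of 4 receptor transcripts from their group mean (y axis, log2) in each array (x axis), IIKO chimeras left and WT chimeras right. In IIKO array 2 and WT array 1, Itga4 lies lowest while Itgae, Gpr15 and Itgb7 lie highest in their group.

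Genes whose profile over the 8 arrays lay nearest to that of Ccr9 were found by the mean absolute difference after each gene was centred on its own mean. The 5 nearest were Alg8, a glucosyltransferase of N-glycan assembly (0.106 log2), Cln3, a lysosomal membrane protein (0.170), Mbnl3, an RNA-binding protein of the muscleblind family (0.202), Dnajb13 (0.214), and Npc1, the lysosomal cholesterol transporter (0.219). This measure picks genes with a difference of like size and with like values in each array. Their differences, from -0.66 for Mbnl3 to -1.0 for Cln3, and any array they share with Ccr9 are therefore descriptions. Alg8 also shared the low WT array 4, at 9.23 there against 9.70 to 9.87 in the other WT arrays, as did Mbnl3, at 9.82 against 10.11 to 10.33. Alg8, Cln3 and Dnajb13 lie on chromosome 7, Npc1 on 18 and Mbnl3 on X, whereas Ccr9 lies on 9. Among the receptors, Itga4 came nearest to Ccr9 at a distance of 0.435, with 769 genes closer, and Itgae was farthest at 0.574, with 16185 closer.

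**Figure D4:**
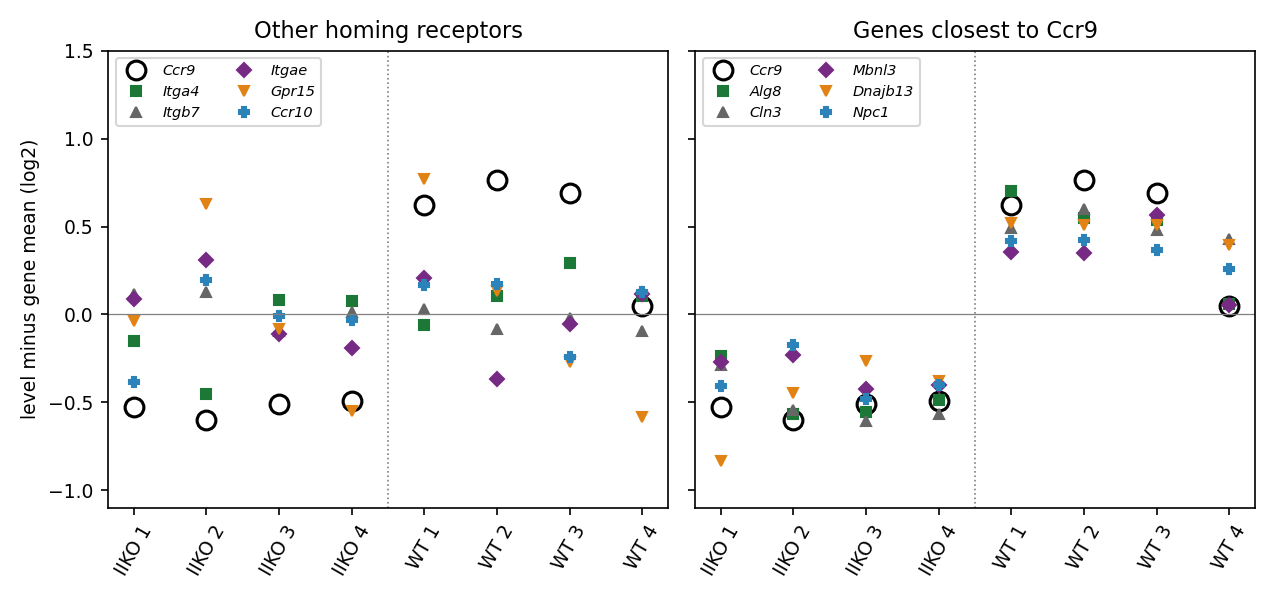
Level minus the gene's mean over 8 arrays (y axis, log2) in each array (x axis, IIKO arrays left of the dotted line and WT arrays right of it), with Ccr9 as open circles, the other 5 receptors in the left panel and the 5 genes nearest to Ccr9 in the right panel. The right-hand genes, picked for nearness to Ccr9, lie below 0 in all IIKO arrays and above it in all WT arrays, and the receptors at left do not.

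Ccr9 lies on chromosome 9 beside other chemokine receptor genes, and no neighbour passed the test. Of the 5 nearest tested genes on either side, 0 of 10 passed limma's test (adjusted p from 0.191 to 0.801). The difference was positive for 5 and negative for 5. An unadjusted p under 0.05 was found for 3, against 17.3% of all genes. The immediate neighbours were Lztfl1, a ciliary trafficking protein (-0.28 ± 0.12, SE, limma adjusted p = 0.283), and Fyco1, an autophagosome transport adaptor (0.04 ± 0.07). The largest difference of the 10 was that of the chemokine receptor gene Ccr1 (0.50 ± 0.19, adjusted p = 0.236), in the direction opposite to Ccr9. Ccr1 was at 5.25, 5.11, 4.31 and 4.43 in IIKO arrays 1 to 4, against 4.09 to 4.37 in WT arrays. These levels lie below 6.04, the lower quartile over genes, and the difference rests on IIKO arrays 1 and 2. Among the other receptor genes on that side, Cxcr6 differed by 0.29 ± 0.17, Xcr1 by -0.11 ± 0.09 and Ccr1l1 by -0.15 ± 0.10. On the side of Lztfl1, the transporter genes Slc6a20a and Slc6a20b differed by -0.21 ± 0.07 and -0.14 ± 0.10, Sacm1l, a lipid phosphatase, by 0.05 ± 0.06 and Limd1 by 0.11 ± 0.09.

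The remaining chemokine receptors had 0 of 20 measured genes past limma's test, 3 higher and 1 lower at an unadjusted p under 0.05, against 5.27% and 12.0% of all genes. Their median difference was -0.01, beside -0.04 over all genes. The largest were positive, and both of these genes lie on chromosome 9, like Ccr9. Ccr2, the receptor for CCL2, was at 11.25 ± 0.44 in IIKO and 10.38 ± 0.20 in WT chimeras (0.87 ± 0.19, SE, limma adjusted p = 0.116), with no overlap between the groups. Ccr3, the eotaxin receptor, was at 8.02 ± 0.73 in IIKO and 6.99 ± 0.15 in WT chimeras (1.03 ± 0.29, adjusted p = 0.167). Its IIKO arrays spread from 7.14 to 8.81 and its WT arrays from 6.81 to 7.17, so the groups overlapped. For both genes, IIKO arrays 1 and 2 were highest. Ccr2 was at 11.54 and 11.70 there, against 10.80 and 10.96 in IIKO arrays 3 and 4. Ccr3 was at 8.37 and 8.81, against 7.74 and 7.14.

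Integrin genes around α4 and β7 gave no call. Of 12 partner chains and activators, 0 passed limma's test. An unadjusted p under 0.05, which 17.3% of all genes had, was found for 1, Itgb1. This β1 chain, the other partner of α4, was at 10.33 ± 0.19 in IIKO and 10.06 ± 0.13 in WT chimeras (0.27 ± 0.10, SE, limma adjusted p = 0.228). Itgb2, the β chain of LFA-1, differed by -0.09 ± 0.05 (adjusted p = 0.397). The list's median was 0.01. Of 19 other integrin chains, 0 passed and 3 were lower at an unadjusted p under 0.05, led by Itga11 (-0.19 ± 0.07) and Itgb6 (-0.18 ± 0.06), with adjusted p of 0.208 and 0.222. Their median was -0.06, beside -0.04 over all genes.

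Ligands of the receptors, which epithelium and endothelium make, had 0 of 8 measured genes past limma's test. Against 17.3% of all genes, 1 of them had an unadjusted p under 0.05. That gene, 2610528A11Rik, listed in the reference with the synonym Gpr15l, differed by -0.23 ± 0.08 (SE, limma adjusted p = 0.217). Vcam1, an endothelial ligand of α4 integrins, differed by 0.37 ± 0.19 (adjusted p = 0.340), with WT array 4 above the other WT arrays and IIKO array 3 above the other IIKO arrays. Without IIKO array 3 the difference was 0.17, and without WT array 4 it was 0.50. The list's median was -0.04.

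Regulators that imprint these receptors were likewise without a call. Of all genes, 5.27% were higher and 12.0% lower at an unadjusted p under 0.05. Retinoic acid and vitamin D signalling had 0 of 22 measured genes past limma's test, with 2 higher and 2 lower at an unadjusted p under 0.05, and a median of 0.01. The 2 with the smallest p were Dhrs3, a retinaldehyde reductase that retinoic acid induces (-0.32 ± 0.11, SE, limma adjusted p = 0.218), and Ncoa1, a coactivator of nuclear receptors (0.15 ± 0.06, adjusted p = 0.221). TGF-β pathway genes and regulators of Itgae had 0 of 20 past the test, 1 higher and 4 lower unadjusted, with a median of 0.01. They were led by Ltbp3, which binds latent TGF-β (-0.21 ± 0.06, adjusted p = 0.160), and Smurf1, a ubiquitin ligase that limits SMAD signals (0.33 ± 0.09, adjusted p = 0.167). Transcription factors tied to Ccr9 or Gpr15 in T cells had 0 of 17 past the test, 1 higher and 2 lower unadjusted, with a median of 0.05. Irf4, a factor of activated and effector Tregs, differed by 0.26 ± 0.07 (adjusted p = 0.160) and Foxo1, which sustains the homing receptors of resting T cells, by -0.17 ± 0.06 (adjusted p = 0.235).

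Selectins and the receptors and enzymes of lymph node and skin homing had 0 of 12 genes past limma's test, 3 higher and 1 lower unadjusted, with a median of 0.09. Gcnt1, the enzyme that builds core 2 glycans on selectin ligands, was at 8.39 ± 0.30 in IIKO and 7.73 ± 0.28 in WT chimeras (0.66 ± 0.17, SE, adjusted p = 0.152). Gpr183, an oxysterol receptor that positions lymphocytes, differed by 0.19 ± 0.06 (adjusted p = 0.212). Molecules of intestinal Tregs had 0 of 13 past the test, and the highest median of the 9 lists, 0.12. Unadjusted, 3 were higher and 1 lower, beside the same shares of all genes. The groups did not overlap for 5 higher and 1 lower, against 2.83% and 7.69% of all genes. The lists were chosen with earlier results known, so these counts are descriptions. Il10, the suppressive cytokine, was at 9.57 ± 0.14 in IIKO and 9.05 ± 0.30 in WT chimeras (0.52 ± 0.13, adjusted p = 0.157), and Lag3, an inhibitory receptor, differed by 0.43 ± 0.11 (adjusted p = 0.160).

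**Figure D5:**
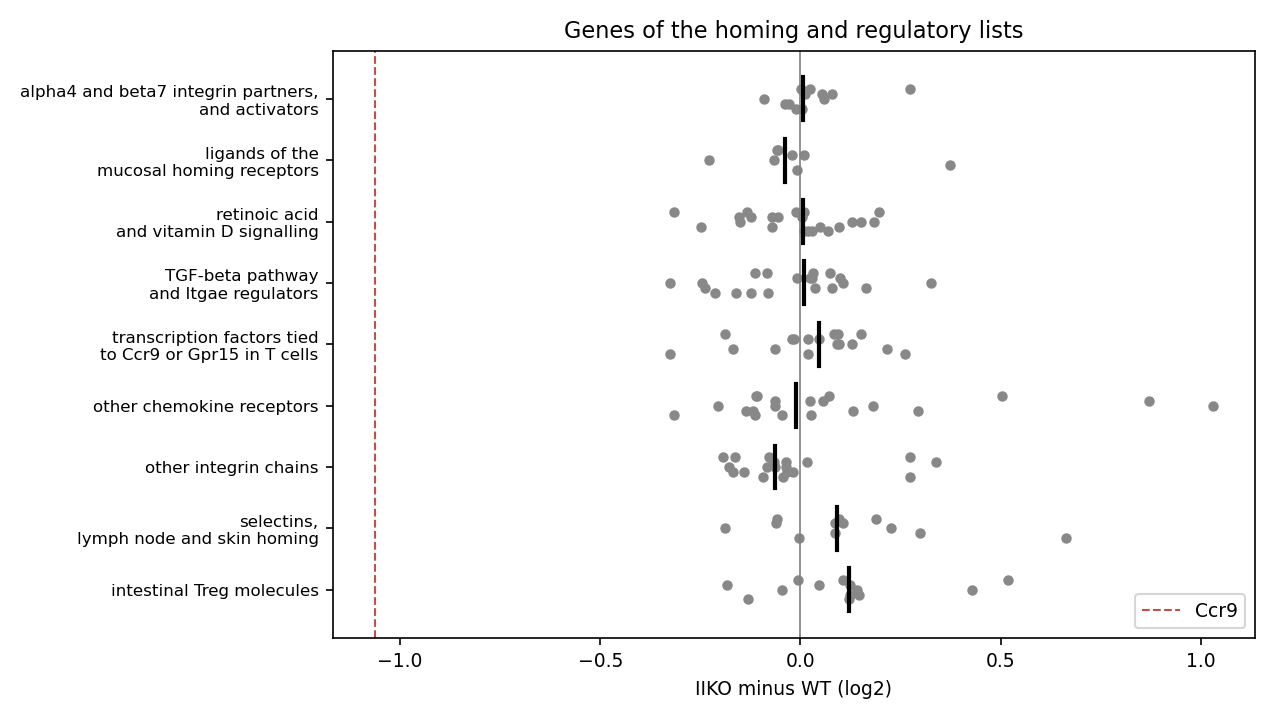
IIKO minus WT difference (x axis, log2) of every measured gene of the 9 lists (grey points, displaced vertically for visibility), with the list median as a black bar and the Ccr9 difference of -1.06 as a dashed line. No listed gene reaches the Ccr9 line, and the genes farthest to the right are Ccr2 and Ccr3.

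Markers of other cells that carry Ccr9 were set beside its difference. Of 10 measured markers of plasmacytoid dendritic cells, 8 had negative differences, as did 62.9% of all genes. Only 1, Pacsin1, passed limma's test, and it was lower (-0.38 ± 0.06, SE, adjusted p = 0.0417). Of all genes, 0.286% passed, and 0.125% passed as lower. Pacsin1 lies on chromosome 17, and whether its place there bears on its difference was not tested. It did not pass whichever array was left out (limma adjusted p from 0.055 to 0.135). Nor did it pass with the replicate block (0.0938) or with eBayes trend and robust variance (0.0619). At an unadjusted p under 0.05, 1 marker was higher and 2 were lower, against 5.27% and 12.0% of all genes. The higher one, named after its value was seen, was Tcf4, a transcription factor of these cells (0.20 ± 0.08, adjusted p = 0.245). Siglech, the surface receptor that defines these cells in mice, was at 6.51, 6.35, 6.48 and 6.42 in the IIKO arrays, against 6.55, 6.74, 6.59 and 6.63 in the WT arrays (-0.19 ± 0.06, adjusted p = 0.199). The mean level of the 10 markers lay between 7.38 and 7.42 in IIKO and between 7.49 and 7.56 in WT arrays. Their median difference was -0.15, beside -0.04 over all genes. How often the mean of 10 genes separates these groups was not examined. Some of these genes, Bst2 and Irf8 among them, are also transcribed by T cells. Markers of thymocytes and recent emigrants had 0 of 11 past the test (3 higher and 2 lower unadjusted), with marker means of 7.09 to 7.26 in IIKO and 7.21 to 7.26 in WT arrays. Sox4 (-0.24 ± 0.06, adjusted p = 0.157) and Themis (0.39 ± 0.12, adjusted p = 0.179) had the smallest p. The part of any of these cells in the Ccr9 difference was not tested.

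Other marker lists overlapped between the groups. Of all genes, 17.3% had an unadjusted p under 0.05, 5.27% higher and 12.0% lower. Markers of CD8 T cells had 0 of 8 past limma's test (2 higher and 2 lower unadjusted) and means of 6.56 to 6.72 in IIKO and 6.57 to 6.72 in WT arrays, with Gzmk at -0.36 ± 0.10 and Klrk1 at 0.45 ± 0.14 (SE). Markers of conventional dendritic cells and macrophages, some of which carry αE, had 0 of 15 past the test (1 unadjusted) and means of 6.22 to 6.63 in IIKO and 6.25 to 6.45 in WT arrays. Their smallest p were those of Clec10a (-0.22 ± 0.08) and Cd68 (0.21 ± 0.12). Markers of B and plasma cells, the latter a known source of Ccr10, had 0 of 11 past the test (1 unadjusted), led by Ebf1 (-0.22 ± 0.09) and Xbp1 (0.11 ± 0.06), with means of 6.23 to 6.35 in IIKO and 6.26 to 6.40 in WT arrays. Mast cell and basophil markers had 0 of 8 past the test (0 unadjusted), with Gata2 at -0.11 ± 0.06 and Fcer1a at -0.11 ± 0.08, and means of 5.78 to 5.90 in IIKO and 5.83 to 5.91 in WT arrays. The mean of the 9 measured Treg markers, Foxp3 among them, was 11.49 to 11.58 in IIKO and 11.42 to 11.53 in WT arrays, with 0 past the test (2 higher unadjusted, Il2ra at 0.17 ± 0.06 and Ctla4 at 0.12 ± 0.05).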

How the data were processed

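RNA of sorted Tregs from 4 IIKO and 4 WT chimeras was measured on 1 Affymetrix array each, and the arrays were grouped by their titles. Per the submitters' processing notes, the authors used affy and RMA, a method that subtracts background, equalizes the quantiles of the arrays and condenses each probe set to 1 value. The deposited log2 level of each probe set results from this. Versions were not given in the sources used here. Array medians lay between 6.96 and 7.03. Precision is limited by the 8 arrays. No array repeated another: even the most alike pair differed with an SD of 0.185 over genes.

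Of 34760 probe sets, 21640 had 1 gene symbol in the platform annotation, 1321 had several and 11799 had none, and only the first kind was used. A gene with several probe sets (954 genes) kept the one with the highest mean. A reference gene table (GRCm38.p6) matched 21553 probe sets by gene identifier and gave chromosomes and gene order. The array annotation names no build, so only the promoter sequences carry coordinates.

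Groups were compared over all 19937 genes with limma (version 3.58.1, R 4.3.3; a moderated linear model of IIKO minus WT, two-sided, Benjamini-Hochberg adjustment, threshold 0.05). There was no filter on dim genes. The fit was tested on simulated data. The members, the 9 gene lists and the 7 marker lists were chosen with earlier results of these data known. Of 155 different genes in the 9 lists, 143 were measured. The genes named are the receptors, the 2 of each list with the smallest p, the 5 nearest to Ccr9 in profile without unnamed gene models, and the 5 neighbours of Ccr9 on either side; Bst2 and Irf8 are named as background, and Tcf4 was named after its value was seen. Alternatives were a threshold of 0.01, median centring, a further quantile normalization, the brighter genes alone, averaged probe sets per gene, eBayes with trend and robust variance, array weights, the replicate number as a block, and each array left out. Matplotlib 3.10.9 under Python 3.11.15 drew the figures.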

Additional observations from a re-analysis of the deposited data

Results flagged for a closer look

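Arrays were compared within each group for 53 named genes, 106 gene and group combinations in all, by the gap of an extreme array to the nearest other divided by the group's range. It passed Dixon's 95% critical value for 4 samples in 7 of them, and chance passes about 1 in 20. Among the receptors, Ccr10 was at 7.21 in WT array 3, against 7.58 to 7.63 in the other WT arrays. Among the genes nearest to Ccr9 in profile or in place, Dnajb13 was at 8.56 in WT array 4, against 8.67 to 8.69 in the others, and Lztfl1 was at 10.77 in WT array 3, against 10.31 to 10.38. Il10 was at 9.36 in IIKO array 3, against 9.63 to 9.65 in the other IIKO arrays. Ltbp3 was at 7.44 in IIKO array 2, against 7.38 in each of the others. Ebf1, a B cell factor, was at 5.15 in IIKO array 1, against 5.32 to 5.33. Vcam1 was at 7.64 in WT array 4, against 7.09 to 7.18 in the other WT arrays.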

How the results depend on the processing

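Under the 16 alternatives for each of the 5 tested receptors, 0 passed. Adjusted p ran from 0.248 to 0.608 for Itga4, from 0.393 to 0.876 for Itgb7 and from 0.395 to 0.988 for Ccr10, which all kept their sign. Leaving out 1 array moved the difference of Itgae between -0.065 and 0.126 (-0.046 without IIKO array 2) and that of Gpr15 between -0.237 and 0.229, so both changed sign; Gpr15 also turned to 0.026 with arrays centred on their medians and to 0.016 with array weights. The Ccr9 difference ran from -1.22 to -0.98 over its 15 alternatives. None of the 9 gene lists gained a called gene under any of the 16. The count over all genes was 21 at a threshold of 0.01, against 57, and 32 to 50 when 1 array was left out. Without WT array 1 or IIKO array 2 it was 32, without WT array 3 it was 33, without IIKO array 3 it was 35 and without IIKO array 1 it was 36. With the replicate number as a block it was 31, and 0 of the 5 receptors passed. The labels do not say that the numbers pair the arrays. Correlations of same-numbered deviations were 0.04, -0.01, -0.07 and 0.22, and only array 4 of the IIKO group correlated best with its own number. So few arrays, centred on their group means, cannot settle whether they were paired. Over the other 47 named genes, 722 of 733 values stayed the same, and the other 11 were lost calls of Pacsin1. For tested genes, this means that the sign and the call were kept. The 5 genes nearest to Ccr9 had no test, and their differences kept their sign and moved by less than their pooled SD within groups. Without scanner files, signal over background was not examined. Gpr15 and Ccr10 had means of 7.50 and 7.45 over all 8 arrays, and Ccr9 had a mean of 7.37 in IIKO chimeras. These receptors thus lay above the median of 7.10 over genes. The missing background limits what they can show, and more so the dimmer genes such as Ccr1 (4.78 in IIKO and 4.27 in WT chimeras).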
